A study of Mus musculus with 14 samples.

Results

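The genes described here encode the aryl hydrocarbon receptor and proteins tied to it: *Ahr*, the receptor, *Arnt2*, a possible DNA-binding partner, and *Ahrr*, *Tiparp* and *Cyp1b1*, which the receptor is known to induce. They are 5 of the 26528 gene symbols in the brain table and of the 28316 in the retina table. They were selected on the values of *Ahr* in these brain libraries, where it stood among the genes with the largest ratio between control and knockout endothelial cells (ECs), so its brain EC values are a description. The question asked is whether the *Ahr* difference in those ECs came with its target genes.

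The study profiled nuclei by snRNAseq from mice in which the TGF-beta receptor gene *Tgfbr1* is deleted in ECs. *Cdh5CreER;Tgfbr1 CKO/-* (CKO) mice carry a floxed and a null *Tgfbr1* allele and a tamoxifen-dependent Cre driven by the promoter of the EC gene *Cdh5*, activated by 4-hydroxytamoxifen on postnatal days 3 to 5. The control libraries are labeled wild type, and the paper describes controls as phenotypically normal mice that usually carry the same Cre with 1 intact *Tgfbr1* allele. The paper gives the age as P14 and the series text calls the mice young adults. Brain nuclei came from vascular fragments, with 2 brains pooled per library and 1 library per genotype. Retina nuclei came from whole retinas, in 1 control and 11 CKO libraries, and the number of mice behind each was not given in the sources used here.

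AHR is a transcription factor of the bHLH-PAS family that rests in the cytoplasm bound to chaperones. When it binds a ligand, such as a dioxin or a tryptophan metabolite, it enters the nucleus, pairs with ARNT and binds DNA at sites with the core GCGTG. Its targets include the monooxygenase genes *Cyp1a1* and *Cyp1b1*, and *Ahrr* and *Tiparp*, whose products restrain the receptor. A transcript count of *Ahr* therefore measures the amount of message and not the activity of the protein.

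The control brain library held 16649 nuclei and 49798325 UMIs (unique molecular identifiers, each counting 1 captured transcript), and the CKO brain library 14675 nuclei and 31033373 UMIs. The 2 brain libraries shared 2 barcodes. All levels are given in CPM, the UMIs of a gene scaled to the total UMIs of the same cell type and library. Brain values have no replicates and no test. Their intervals are 95% intervals for counting error only, exact Poisson for levels, exact binomial for shares and exact conditional binomial for ratios of CKO to control. *Xist*, transcribed from the inactive X chromosome, was at 1963 CPM in the control brain library and 1.29 in the CKO one, and the Y chromosome gene *Uty* at 64.5 and 133, so the libraries differed in the sex of the pooled mice as well as in genotype, and with 1 library each the effects of the 2 cannot be separated.

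Nuclei labeled ECs numbered 2475 in the control library, with 5801552 UMIs, and 2944 in the CKO library, with 6851854. All 9 endothelial markers, among them *Cldn5*, *Flt1* and *Cdh5*, were present, and together they made up 14423 CPM in control ECs and 11077 in CKO ECs. In nuclei labeled vSMCs, the type with the next highest level, they reached 6531 and 6762 CPM. Transcripts of other vascular cells were present under the EC label too. The 8 pericyte markers summed to 8390 CPM in control ECs and 7127 in CKO ECs, led by *Rgs5*, and the 7 fibroblast markers to 652 and 450 CPM, led by *Col1a2*. Of the 5 smooth muscle markers, *Cnn1* was at 0 in both libraries, and the 5 summed to 96.5 and 93.0 CPM.

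The receptor gene itself gave the widest gap of the 5. *Ahr*, on chromosome 12 of GRCm39 from 35547973 to 35585057 on the minus strand, had 20 UMIs in control ECs, or 3.45 CPM (2.11 to 5.32), and 351 UMIs in CKO ECs, or 51.2 CPM (46.0 to 56.9). The 2 intervals did not overlap, and the ratio was 14.9 (9.48 to 24.6). Among the 13154 genes with at least 20 UMIs over both libraries, 65 had a ratio of at least 10 and *Ahr* took place 37 from the top. With at least 200 UMIs required, it took place 4 of 7924. The ratio was 58.2 when each nucleus was given equal weight (1.13 and 65.8 CPM).

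*Ahr* was spread thinly over many CKO EC nuclei. It was seen in 312 of 2944 CKO nuclei, of which 275 held 1 UMI, 35 held 2 and 2 held more, and in 19 of 2475 control nuclei. Control nuclei with *Ahr* were deep, with a median of 8613 UMIs per nucleus, against 1335.5 for those without it. In the CKO library these medians were 3038 and 1368.

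Because a deeper nucleus is more likely to show a rare transcript, nuclei were also thinned to 1000 UMIs, which left out 1005 control and 1055 CKO nuclei. *Ahr* was then seen in 3 of 1470 control nuclei, or 0.204% (0.0421 to 0.595), and in 98 of 1889 CKO nuclei, or 5.19% (4.23 to 6.29). Without thinning the shares were 0.768% and 10.6%, at median depths of 1347 and 1491 UMIs. For comparison, 0 of 603 control and 0 of 640 CKO oligodendrocytes held an *Ahr* UMI, at medians of 2328 and 954.5 UMIs. A count of 3 UMIs would be 1.93 and 4.12 CPM there, and endothelial markers were at 147 and 1.37 CPM, so these nuclei say little about stray EC transcripts.

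*Ahr* was also counted in EC nuclei sorted by the markers of other cells. Nuclei labeled pericytes held 0 *Ahr* UMIs in both libraries, and 3 UMIs would be 24.6 CPM for the control and 326 for the much smaller CKO sample. Among EC nuclei with pericyte markers under 10% of pericyte and endothelial marker UMIs, *Ahr* had 0 UMIs in 505 control nuclei and 9 in 201 CKO nuclei, which is 6.64 times the level of 3 UMIs in the control, with a lower 95% limit of 4.37 for the ratio. In these control nuclei 3 UMIs would be 7.98 CPM, above the 3.45 CPM of *Ahr* in all control ECs. The count of 0 therefore says little about the control level. Among EC nuclei with no fibroblast marker UMI, a split chosen after seeing the data, it had 3 UMIs in 1829 control nuclei and 210 in 2075 CKO nuclei. That is a ratio of 58.6 (19.8 to 287). In the 646 control and 869 CKO nuclei that did hold a fibroblast marker, it had 17 and 141 UMIs, a ratio of 7.11 (4.28 to 12.5). Such splits also sort nuclei by depth, since a deeper nucleus is more likely to hold a marker UMI.

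The cycling marker list was higher in CKO ECs, at 540 CPM against 256, with 5 of its 7 genes at least 2-fold higher, against 11.2% of all genes tested. Without nuclei holding at least 2 UMIs of that list, *Ahr* had 14 and 237 UMIs, which gave a ratio of 18.3 (10.7 to 34.0). The levels behind it were 2.82 and 51.6 CPM, in 2299 control and 2336 CKO nuclei. In the nuclei set aside, 176 and 608, a subset added after seeing the data, *Ahr* had 6 and 114 UMIs, at 7.23 and 50.4 CPM, and the ratio was 6.98 (3.11 to 19.4). This split, too, sorts nuclei by depth.

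Across the 21 brain labels, ECs stood low in the order of *Ahr* levels in the control and had the highest measured level in the CKO library. In the control, *Ahr* was highest in microglia, at 113 CPM (51.5 to 214) from 9 UMIs, followed by the neuron cluster Glut_14 at 26.4 (19.4 to 34.9). The other clusters labeled Glut or GABA lay between 7.59 and 19.5 CPM, apart from Glut_5 at 0, and neighbors among these, Glut_5 aside, had overlapping intervals. Control ECs, at 3.45 CPM, could not be separated by counting error from glia at 3.46 or the cluster CP_6 at 3.03. Astrocytes had 1 UMI in the control against 0 in the CKO library.

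In the CKO library ECs had 51.2 CPM, followed by Glut_14 at 29.6 (20.8 to 40.8), whose interval did not reach that of the ECs. CKO microglia held 0 UMIs, but of 14637 UMIs in all, 3 would be 205 CPM, and the upper 95% limit was 252. CKO pericytes and GABA_22 held 0 as well, with upper limits of 400 and 82.5 CPM, so the places of these 3 types are not known. Outside ECs, *Ahr* had 498 UMIs in the control against 238 in the CKO library, and the ratio was 0.870 (0.742 to 1.02). That ratio mixes cell types, and the 2 libraries held different numbers of nuclei of each type. In Glut_0, the cluster with most *Ahr* UMIs outside ECs, it was 17.0 and 13.2 CPM, a ratio of 0.772 (0.605 to 0.980). The interval of the ratio also lay below 1 in Glut_1, Glut_11 and Glut_17. *Ahr* was at 11.4 and 7.23, 9.73 and 2.43, and 19.5 and 6.24 CPM there. Its ratio was above 1 in Glut_14, Glut_21, CP_6, CP_8 and vSMCs, each with an interval that includes 1. ECs held 3.86% of all *Ahr* UMIs of the control library and 59.6% of those of the CKO library.

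**Figure D1:**
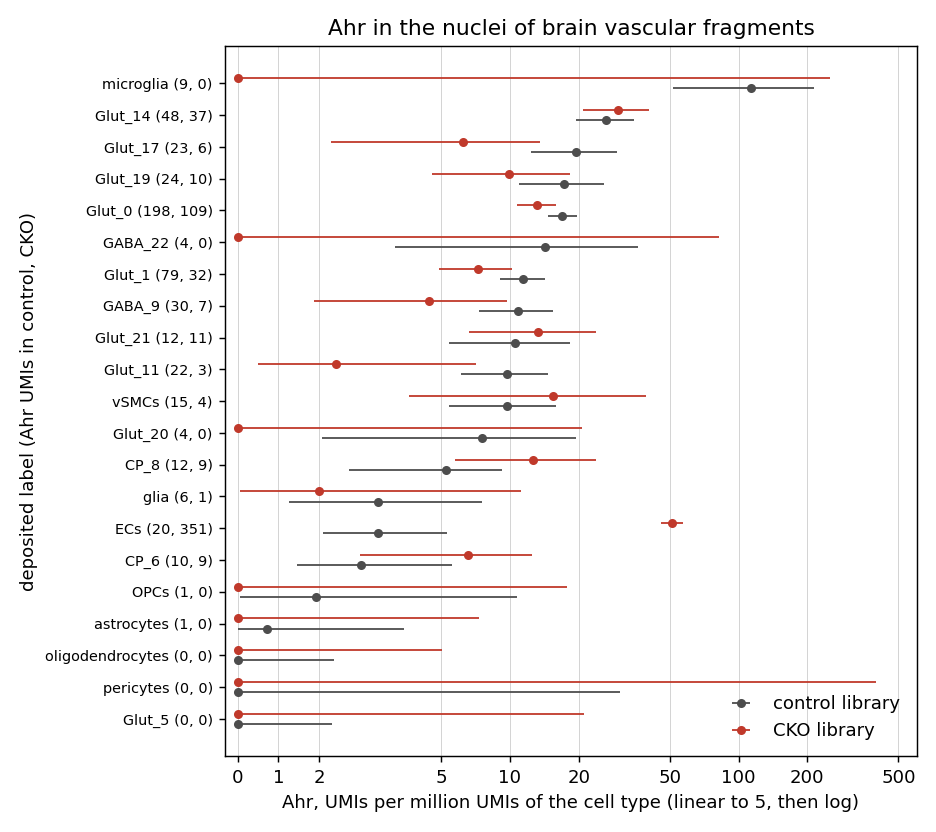
*Ahr* level in each of the 21 labeled cell types of the brain libraries, in CPM, with 95% Poisson intervals for counting error; the axis is linear to 5 and logarithmic beyond, and the numbers after each label are the *Ahr* UMIs in control and CKO. ECs are at 3.45 in the control against 51.2 in the CKO library, while the next type of the CKO library, Glut_14, is at 29.6.

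The genes whose levels were most like those of *Ahr* across brain cell types were *Dgke*, *Naa25*, *B230216N24Rik*, *Ankzf1* and *Rrp15*. Pearson's r of log2(CPM + 1) over 38 sums of a cell type in a library was 0.83, 0.82, 0.82, 0.82 and 0.81, and Spearman's rho 0.79, 0.77, 0.76, 0.70 and 0.76, among 14447 genes with at least 200 UMIs in all. These sums share 2 libraries and differ in depth. Sums of fewer than 100000 UMIs were left out, which removed CKO pericytes, CKO GABA_22 and the microglia of each library. Microglia had the highest *Ahr* level in the control. In ECs, *Dgke*, which encodes a diacylglycerol kinase, was at 26.5 CPM in the control against 66.0 in the CKO library. *Naa25*, *Ankzf1* and *Rrp15* were higher in CKO ECs too, at 14.0 and 27.1, 4.65 and 7.01, and 5.69 and 13.3 CPM. Only *B230216N24Rik* was lower, at 22.9 and 12.1. None of the other members was close to *Ahr* by this measure: r was 0.24 for *Arnt2*, -0.06 for *Cyp1b1* and -0.28 for *Tiparp*, and *Ahrr* had too few UMIs.

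The partners of the receptor showed no matching difference. *Arnt*, the partner AHR uses in most cells, was at 101 and 103 CPM in control and CKO ECs, with a ratio of 1.01 (0.907 to 1.13). *Arnt2*, the partner typical of neurons, lies on chromosome 7 from 83895483 to 84059740 on the minus strand. It had 17 UMIs in control ECs and 13 in CKO ECs, 2.93 and 1.90 CPM, a ratio of 0.647 (0.289 to 1.42) whose interval includes 1. Its level was far higher in Glut_14, at 372 and 448 CPM, and in astrocytes, at 289 and 340.

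Among all 13154 genes with at least 20 UMIs in ECs, 11.2% had a ratio of at least 2 and 5.79% a ratio of at most 0.5, 17.0% in either direction. The median ratio was 1.10 over all these genes, and with TMM factors each log2 ratio was 0.10 smaller.

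Few target genes could be compared in ECs. Of 14 genes, 13 were in the table and 6 reached 20 UMIs, of which 0 were at least 2-fold higher, against 11.2% of all genes, and 1, *Cyp1b1*, at least 2-fold lower, against 5.79%. With 6 genes, a count of 0 is not distinct from that share. The median ratio of the 6 was 0.877, against 1.10 over all genes. The 2 genes with most UMIs, *Slc7a5*, for a large neutral amino acid transporter, and *Nfe2l2*, for the antioxidant regulator NRF2, had ratios of 0.584 (0.569 to 0.600) and 0.767 (0.694 to 0.846).

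*Tiparp*, which encodes an ADP-ribosyltransferase that modifies AHR and is among its most widely induced targets, lies on chromosome 3 from 65435320 to 65463365 on the plus strand. It was the target member with enough UMIs for a narrow interval. Its 232 UMIs in control ECs gave 40.0 CPM, and its 318 UMIs in CKO ECs gave 46.4 (41.4 to 51.8). The ratio of 1.16 (0.977 to 1.38) was close to the median of all genes.

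*Tiparp* differed more outside ECs. Apart from pericytes, at 205 CPM from 25 UMIs in the control, it was highest in astrocytes. There it was at 162 CPM in control and 247 in CKO nuclei, a ratio of 1.52 (1.21 to 1.91), although astrocytes held 1 *Ahr* UMI in all. In the neuron clusters Glut_0 and Glut_1 the ratio was below 1, at 0.245 (0.0927 to 0.554) and 0.406 (0.208 to 0.741), as in vSMCs, at 0.264 (0.0532 to 0.805). In CP_6 it was 1.35 (1.04 to 1.74). Over all nuclei outside ECs it was 0.648 (0.575 to 0.728). The 2 libraries held different numbers of nuclei of each type.

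*Cyp1b1*, which encodes a monooxygenase that metabolizes AHR ligands, estrogens and retinoids, lies on chromosome 17 from 80008966 to 80022532 on the minus strand. It was lower in CKO ECs, with 52 UMIs or 8.96 CPM (6.69 to 11.8) in the control and 25 UMIs or 3.65 CPM (2.36 to 5.39) in the CKO library. The ratio was 0.407 (0.242 to 0.668). In the split by fibroblast markers chosen after seeing the data, all 52 control UMIs and 24 of the 25 CKO UMIs lay in EC nuclei that also held a fibroblast marker UMI, 646 in the control against 869 in the CKO library. In the 1829 and 2075 other nuclei *Cyp1b1* had 0 and 1 UMIs, which gives no ratio. The nuclei with a fibroblast marker UMI were deeper, so they held a larger part of the UMIs than of the nuclei.

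The fibroblast list differed in the same direction between the EC samples, with 3 of 7 markers, *Dcn*, *Pdgfra* and *Slc6a13*, at most 0.5-fold, against 5.79% of all genes, and a ratio of 0.691 for the sum. Other marker lists were lower in CKO ECs too, with ratios of 0.427 for choroid plexus, 0.732 for neurons, 0.768 for ECs and 0.849 for pericytes. The sums of microglia, smooth muscle and astrocyte markers lay closer to 1, at 0.908, 0.963 and 1.03, and that of cycling markers was at 2.10. Single genes could differ from their sum. In the astrocyte list, *Gfap* and *Slc1a2* had ratios of 0.282 and 0.559, while *Slc1a3*, *Gja1* and *Aqp4* had 1.42, 1.28 and 1.39. *Ttr* made up 1113 of the 1121 CPM of the choroid plexus sum in control ECs. Among endothelial markers, *Cdh5* was higher in CKO ECs, at 667 and 1003 CPM. Outside ECs, *Cyp1b1* was highest in nuclei labeled glia, at 54.2 CPM in the control against 32.1 in the CKO library, from 94 and 16 UMIs. Over all nuclei outside ECs its ratio was 0.332 (0.208 to 0.511), but the libraries held different numbers of nuclei of each type, with 1227 control and 419 CKO nuclei labeled glia. Within glia the ratio was 0.591 (0.324 to 1.01), and within vSMCs its interval was 0.407 to 2.92, and both intervals include 1. The nuclei labeled glia carried the highest level of the 7 fibroblast markers of any label, 8284 and 9351 CPM. In vSMCs *Cyp1b1* was at 19.4 and 23.2 CPM. The part of fibroblast transcripts in the EC value of *Cyp1b1* was not tested further, and its level in ECs free of them was not detectable at this depth.

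*Ahrr*, which encodes a repressor that competes with AHR for ARNT and is a standard readout of receptor activity, lies on chromosome 13 from 74359237 to 74440462 on the minus strand. It had 0 UMIs in control ECs and 2 in CKO ECs. The floor of 3 UMIs corresponds to 0.517 and 0.438 CPM, so no ratio is given and a difference was not detectable at this depth. Outside ECs it had 79 UMIs in the control against 29 in the CKO library, a ratio of 0.668 (0.421 to 1.03).

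Other classical targets were also near 0 in ECs. *Cyp1a1*, the target most used to measure AHR activity, had 1 UMI in the control against 0 in the CKO library, and *Aldh3a1* had 0 and 3. *Nqo1*, for a quinone reductase that also answers to NRF2, had 24 and 35 UMIs, a ratio of 1.23 (0.714 to 2.17).

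The target transcripts were not seen more often in the CKO nuclei that held *Ahr*, beyond counting error. After thinning to 1000 UMIs, *Tiparp* was seen in 3 of 98 nuclei with *Ahr*, or 3.06% (0.636 to 8.69), and in 87 of 1791 without it, or 4.86% (3.91 to 5.96). *Cyp1b1* was seen in 0 of 98 and 7 of 1791, where the upper 95% limit of 0 of 98 nuclei with a UMI was 3.69%. *Nqo1* was seen in 1 of 98 and 8 of 1791, and *Arnt* in 9.18% and 8.93%. With 98 nuclei these intervals are wide, and thinning leaves many nuclei that contain *Ahr* among those counted as without it.

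By the same count, *Pcdh17*, a protocadherin gene, was seen in 24.5% of nuclei with *Ahr* (16.4 to 34.2) and in 10.7% of those without it (9.27 to 12.2), and these intervals did not overlap. They did overlap with nuclei thinned to 500 UMIs, at 11.3% (4.66 to 21.9) and 5.95% (5.06 to 6.94), and to 2000 UMIs, at 30.9% (22.4 to 40.4) and 21.3% (18.9 to 23.9). *Nr5a2* was seen in 12.2% and 9.72%, *Tox* in 10.2% and 6.92%, and *Itga2* in 9.18% and 5.36%, all with overlapping intervals. The arterial list was seen in 29.6% and 32.9%, the capillary list in 90.8% and 90.3% and the venous list in 50.0% and 44.2%, with overlapping intervals for each list. Pericyte markers were seen in 99.0% and 98.1%, and cycling markers in 30.6% and 26.1%.

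**Figure D2:**
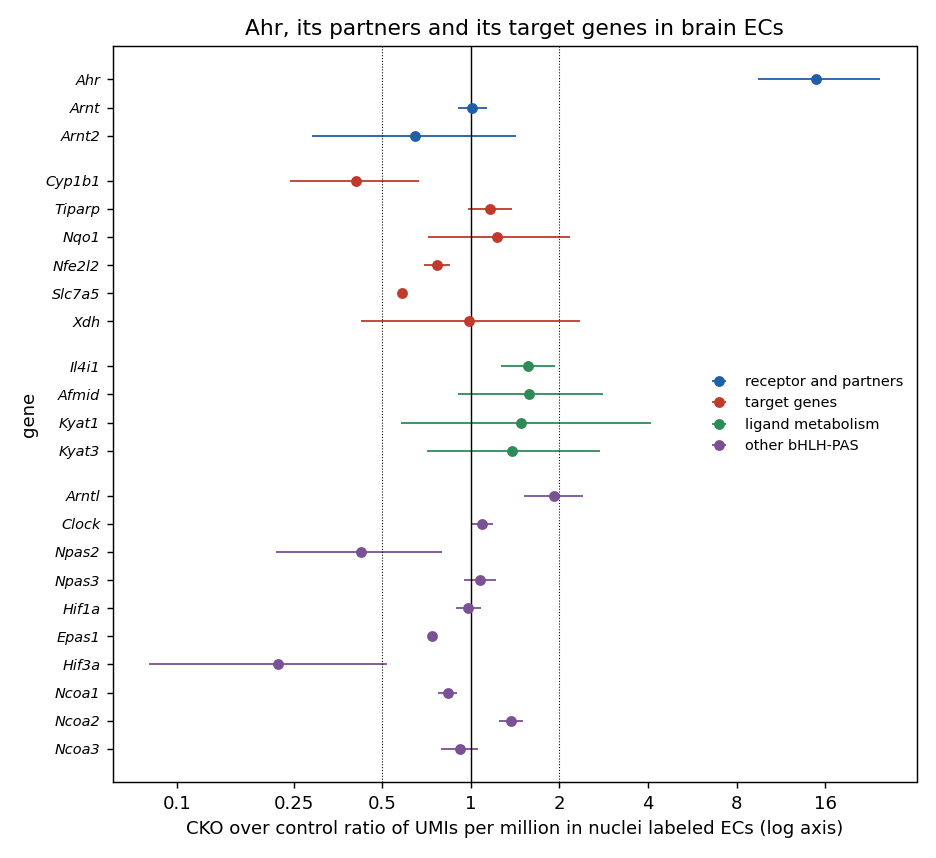
CKO over control ratio of CPM in nuclei labeled ECs, on a log axis with 95% counting intervals, for *Ahr* and its partners and for the genes with at least 20 UMIs of the target, ligand metabolism and bHLH-PAS lists; dotted lines mark ratios of 0.5 and 2. *Ahr* stands alone at 14.9, *Tiparp* lies at 1.16 and *Cyp1b1* at 0.407.

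Genes that make or consume AHR ligands from tryptophan were few in ECs. Of 10, 4 reached 20 UMIs and 0 passed 2-fold in either direction, against 17.0% of all genes, a share from which 0 of 4 is not distinct. Their median ratio was 1.52 against 1.10 over all genes. *Il4i1*, for an amino acid oxidase that yields AHR ligands, had the most UMIs, 145 and 268, and a ratio of 1.56 (1.27 to 1.93). *Afmid*, *Kyat1* and *Kyat3* had ratios between 1.38 and 1.57, each with an interval that includes 1.

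In the wider bHLH-PAS family, 13 of 19 genes reached 20 UMIs, of which 1 was at least 2-fold higher, against 11.2% of all genes, and 2 at least 2-fold lower, against 5.79%. The higher one was *Ahr*, on whose value the genes were selected. The median was 0.981. The lower genes were *Hif3a*, for a hypoxia-inducible factor, with 27 and 7 UMIs and a ratio of 0.220 (0.0807 to 0.517), and *Npas2*, a clock gene, with 32 and 16 UMIs and a ratio of 0.423 (0.217 to 0.795). *Hif1a* and *Epas1*, for the main hypoxia-inducible factors, had ratios of 0.981 (0.893 to 1.08) and 0.739 (0.717 to 0.762).

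Of the lists of vessel zones, the capillary one differed in its sum. Of that list, 3 of 5 genes, *Mfsd2a*, *Tfrc* and *Spock2*, were at most 0.5-fold, against 5.79% of all genes, and the list summed to 7997 CPM in control ECs and 3552 in CKO ECs. Of the venous list, 1 of 6, *Ackr1*, was at least 2-fold higher, against 11.2% of all genes, at 3.62 and 22.3 CPM, a ratio of 6.17 (3.90 to 10.3). The median of that list was 1.01, its sum was 715 and 634 CPM, and *Vwf*, *Vcam1* and *Slc38a5* had ratios of 0.605, 0.741 and 0.917. Of the arterial list, 0 of 6 passed 2-fold in either direction, against 17.0% of all genes, and its sum was 501 and 506 CPM. The part of these differences in the *Ahr* value was not tested.

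The start regions of the targets are shown because they carry the core that AHR and ARNT bind. RefSeq promoters, 250 bases before to 50 after the gene start on build GRCm38.p6, were found for 4 of the 5 members, *Ahrr*, *Arnt2*, *Tiparp* and *Cyp1b1*. The core GCGTG, searched on both strands (CACGC on the other), was in 3 of the 4 and in 32.4% of 32851 promoters. Capitals mark it in the sequences, each written 5′ to 3′ on the strand of its gene.
*Tiparp*, chr3:65528197-65528496, plus strand: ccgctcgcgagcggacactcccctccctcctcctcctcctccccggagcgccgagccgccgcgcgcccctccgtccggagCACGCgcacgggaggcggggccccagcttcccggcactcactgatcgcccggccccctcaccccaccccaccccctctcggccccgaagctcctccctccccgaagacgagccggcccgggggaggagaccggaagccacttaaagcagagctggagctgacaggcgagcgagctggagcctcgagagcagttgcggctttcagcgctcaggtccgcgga
*Cyp1b1*, chr17:79715012-79715311, minus strand: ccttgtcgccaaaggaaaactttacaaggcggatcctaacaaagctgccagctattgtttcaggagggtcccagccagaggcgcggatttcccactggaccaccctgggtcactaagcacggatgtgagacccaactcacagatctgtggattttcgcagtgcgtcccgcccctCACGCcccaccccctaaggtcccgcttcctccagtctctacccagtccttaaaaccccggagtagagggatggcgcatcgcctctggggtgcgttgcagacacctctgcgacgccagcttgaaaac
*Ahrr*, chr13:74292282-74292581, minus strand: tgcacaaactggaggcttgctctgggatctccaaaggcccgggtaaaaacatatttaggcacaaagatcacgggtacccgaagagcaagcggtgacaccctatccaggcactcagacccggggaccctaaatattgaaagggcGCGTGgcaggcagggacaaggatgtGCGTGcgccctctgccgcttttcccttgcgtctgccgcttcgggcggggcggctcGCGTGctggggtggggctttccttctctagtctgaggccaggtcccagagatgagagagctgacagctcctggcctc

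*Ahrr*, the member nearest to 0 in ECs, has 3 copies of the core, as do 3.91% of promoters with 3 or more. *Tiparp* and *Cyp1b1* have 1 each, both on the strand opposite to the gene, and *Arnt2* has 0. The longer form TNGCGTG, which contains the core, was in 5.07% of promoters and, among the members, in that of *Ahrr*, 1 copy. A match of letters is a description and does not show that AHR binds there.

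In the retina, *Ahr* could be compared over libraries other than the brain ones on whose values the genes were selected. ECs are not among the 11 retinal labels, and earlier results of these data were known when the genes were chosen. The control library held 11513 nuclei and 30989702 UMIs. The 11 CKO libraries held 104 to 18862 nuclei, with a median of 4210, and 90449 to 55803724 UMIs, with a median of 16443337. Of the 66 pairs of retina libraries, 9 shared barcodes, at most 2 each. CKO replicate 4, with 104 nuclei, had enough nuclei only of ganglion cells and immune cells. The control and CKO replicates 1 to 7 were made with kit version 4 and CKO replicates 8 to 11 with version 5, and CKO ranges and medians of CPM cover both. By the authors' batch labels, the control and CKO replicates 1 to 3 were batch 1, replicates 4 and 5 batch 2 and replicates 6 to 11 batch 3. For replicates 4 to 11, batch therefore cannot be told apart from genotype, and kit version 5 lies wholly in batch 3. Libraries were the replicates, and the 10 types with at least 20 control nuclei were fitted. With a single control library, which is taken to vary as the CKO libraries do, p-values measure the distance of that library from the CKO spread. *Xist* was at 6779 CPM in the control and at 5577 to 6823 in CKO replicates 1, 2, 4 and 7. In the other CKO libraries, which include all those of kit version 5, it was at most 12.9. These other libraries thus differed from the control in sex as well.

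*Ahr* was highest in rods, the photoreceptors of dim light, and higher in CKO libraries than in the control in most types. In rods it was at 101 CPM (93.9 to 107) in the control, and in 10 CKO libraries the lowest was 114, the median 160 and the highest 185. In the control, cones followed at 58.1 CPM (44.6 to 74.3), and their CKO median was 79.4, from 52.3 to 119. In the CKO libraries immune cells came next after rods, with a median of 82.9 from 63.8 to 119, against 26.2 in the control from 3 UMIs. According to the paper, this label holds microglia in both genotypes and further immune cell kinds in CKO retinas alone, so its groups differ in the cells they hold. The other control values lay between 20.0 CPM in horizontal cells (HC) and 36.3 in cone bipolar cells (CBC), and neighbors in that order overlapped within counting error.

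Every CKO library lay above the control in 7 of the 10 types: rods, CBC, rod bipolar cells (RBC), glycinergic amacrine cells (Gly_AC), HC, Müller glia (MG) and immune cells. Over all genes and types tested, 6.85% of 121773 pairs had every CKO library above the control. By type that share was 3.58% in rods, 7.14% in CBC, 7.29% in RBC, 8.78% in Gly_AC, 10.8% in HC, 9.17% in MG and 10.2% in immune cells. Since all types share 1 control library, the 7 are not independent of each other. In RBC, HC and immune cells the lowest CKO value lay inside the control's counting interval, and in Gly_AC at its upper edge of 26.9. The share of all genes with every CKO library above the control was 5.36% in cones, 5.75% in GABAergic amacrine cells (GABA_AC) and 2.94% in ganglion cells (RGC). In cones and GABA_AC 9 of 10 CKO libraries were above the control for *Ahr*, and in RGC 8 of 11, where replicate 4 had 0 *Ahr* UMIs.

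None of these differences passed the test over all genes. In edgeR's quasi-likelihood fit with the kit as covariate, the log2 fold change of *Ahr* was positive in 10 of 10 types, from 0.25 in RGC to 1.43 in immune cells, and the smallest Benjamini-Hochberg adjusted p was 0.707, in MG. Across the 33 pairs of a member and a type that passed the filter on low counts, 0 had an adjusted p under 0.05 and 5 an unadjusted p under 0.05, of which 4 were of *Ahr* and 1 of *Tiparp*. DESeq2 also called 0 of its pairs, and its own filter left a different set of genes in each type. In the whole fit 4 of 121773 pairs, 0.00328%, passed the adjusted threshold and 3630 had an unadjusted p under 0.05, while DESeq2 called 1089. A p that misses the threshold in such a design does not show that levels were the same.

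Müller glia, the radial glia of the retina, had the largest *Ahr* difference by unadjusted p. *Ahr* was at 22.5 CPM (15.6 to 31.4) in the control, and the 10 CKO libraries lay between 32.8 and 64.4 with a median of 50.3, all above the control. The 4 libraries made with kit version 5, CKO replicates 8 to 11, lay between 55.5 and 62.0, and the 6 made with version 4, like the control, between 32.8 and 64.4. The log2 fold change was 0.91 ± 0.30 (SE; edgeR, unadjusted p = 0.0104, adjusted p = 0.707). Within batch 1, which holds the control and CKO replicates 1 to 3, it was 1.02 ± 0.39. Rod markers summed to 1610 CPM in control MG and 1363 to 2282 in the CKO libraries, of which 6 of 10 were above the control. In rods themselves they summed to 5646 CPM in the control, with a CKO median of 5119, so MG carried many rod transcripts. The part of rod *Ahr* in the MG values was not tested.

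*Tiparp* differed in the same direction in Müller glia. It was at 17.9 CPM (11.8 to 26.0) in the control, and the 10 CKO libraries lay between 31.9 and 53.2 with a median of 41.9, without overlap. Its log2 fold change was 1.12 ± 0.33 (SE; edgeR, unadjusted p = 0.00469, adjusted p = 0.598), and 1.24 ± 0.41 within batch 1. In CBC, too, 10 of 10 CKO libraries were above the control, at 14.0 to 33.6 CPM against 13.8, although the lowest lay inside the control's counting interval of 10.8 to 17.3. In rods, where *Ahr* was highest, *Tiparp* was at 33.1 CPM in the control and 32.4 to 48.6 in the CKO libraries, of which 9 of 10 were above the control, with a log2 fold change of 0.33 ± 0.23 (adjusted p = 1.00, edgeR). Over the 10 types its log2 fold change was positive in 9, from -0.07 in cones.

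*Cyp1b1* was largely a Müller glia transcript in the retina. It was at 17.2 CPM (11.2 to 25.2) in the control and 13.1 to 31.9 in the CKO libraries, with a median of 22.9. The groups overlapped, 9 of 10 CKO libraries were above the control, and the log2 fold change was 0.36 ± 0.43 (adjusted p = 0.961, edgeR). In the 9 other types fitted the control held at most 10 UMIs. Of these only RGC passed the filter, where replicate 4 reached 83.0 CPM from 3 UMIs; without that replicate *Cyp1b1* was no longer tested there.

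*Ahrr* was low in every retinal type. In rods, which gave the most UMIs, it was at 9.41 CPM (7.48 to 11.7) in the control and 4.23 to 11.7 in the CKO libraries, of which 3 of 10 were above the control. The log2 fold change was -0.27 ± 0.45 (adjusted p = 1.00, edgeR). It passed the filter in 3 further types, CBC, GABA_AC and Gly_AC, with log2 fold changes of 0.20, -0.15 and -0.03. In types that did not pass it, the CKO libraries above the control were 0 of 10 in HC, 0 of 10 in RBC and 1 of 10 in cones, 3 of 10 in MG, 4 of 11 in RGC and 6 of 10 in immune cells, where the control held 7, 8, 11, 9, 9 and 0 UMIs. Of the genes that passed the filter, 237 of 10861 in HC and 501 of 11700 in RBC had every CKO library below the control. In rods, *Ahr* lay above the control in 10 of 10 CKO libraries, against 3.58% of all genes, and *Ahrr* in 3 of 10. The SE of the *Ahrr* value was larger than its log2 fold change. Whether the values of these genes are linked was not tested.

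*Arnt2* was near 0 in control rods, cones and RBC, with 1, 3 and 3 UMIs, and higher in the other neurons and MG. In GABA_AC it was at 59.7 CPM in the control and 49.6 to 75.4 in the CKO libraries. It passed the filter in 7 types, in which log2 fold changes ran from -0.34 in CBC to 2.11 ± 1.22 in RBC (adjusted p = 1.00, edgeR), where the control held 3 UMIs. In Gly_AC 10 of 10 CKO libraries were above the control, at 52.3 to 78.6 CPM against 49.5, with a log2 fold change of 0.29 ± 0.16, and the lowest lay within the control's counting interval of 42.4 to 57.4.

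**Figure D3:**
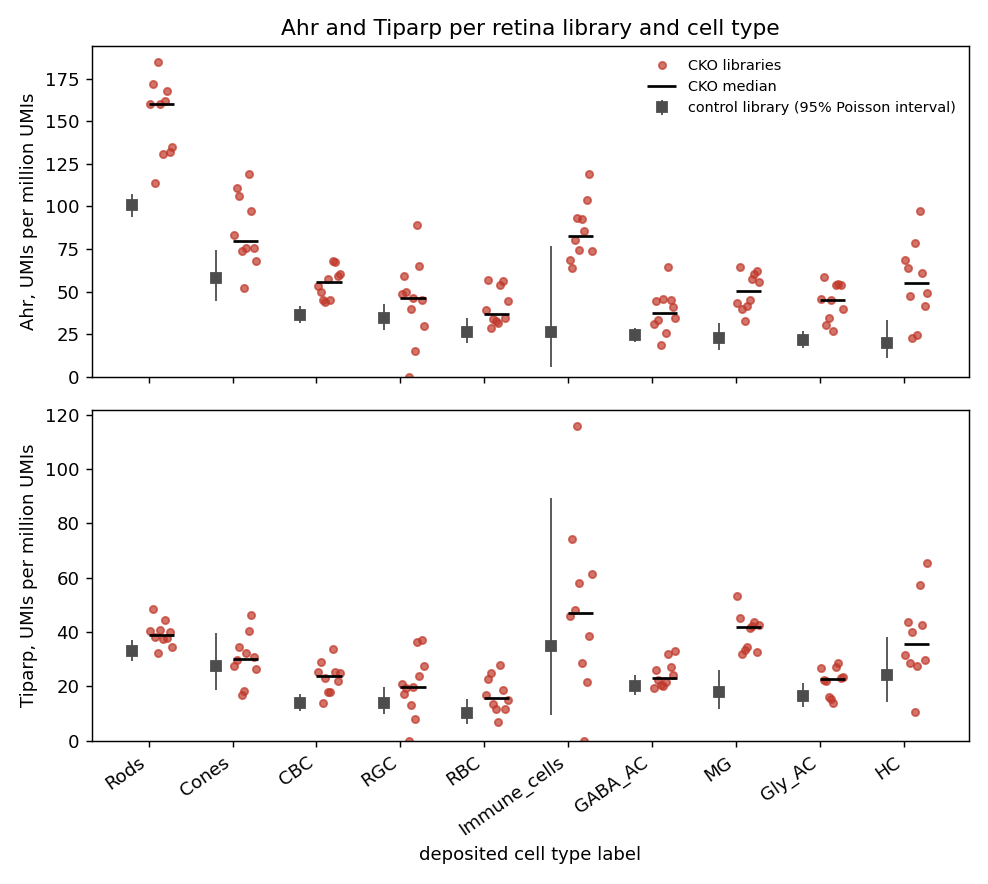
*Ahr* (top) and *Tiparp* (bottom) in CPM of each labeled retinal cell type; squares are the control library with its 95% Poisson interval, points the CKO libraries with at least 20 nuclei of the type, and bars their median. In MG, all CKO points lie above the control for both genes, and in rods this holds for *Ahr* and for 9 of 10 points of *Tiparp*.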

How the data were processed

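The deposited tables hold counts, the whole number of UMIs of a gene in a nucleus. The authors made them with PIPseeker 3.3.0 on a GRCm39 index, CellBender 0.3.2 and SOLO (scVI-tools 1.2.2), and took out mixed nuclei manually, including clusters in CKO retina replicates 4 and 5. The submitters' processing notes name mm10 and Seurat, and symbols, not coordinates, were used to join genes. Cell types, batches and kits are the authors' labels, and UMAP coordinates were not used. No further filter was applied to nuclei.

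UMIs were summed per cell type and library. Brain ratios used genes with at least 20 UMIs, and a gene counted as past the fold at a ratio of at least 2 or at most 0.5. Retina sums were tested with edgeR 4.0.16 (TMM, filterByExpr, quasi-likelihood test, kit as covariate, Benjamini-Hochberg over all genes of a type, threshold 0.05) and with DESeq2 1.42.0 in R 4.3.3. Libraries needed 20 nuclei of the type. Thinning drew UMIs of a nucleus without replacement, in 1 draw per depth. Sums and intervals were computed in Python 3.11.15 with pandas 2.3.3, scipy 1.17.1 and numpy 2.4.6, and plots drawn with matplotlib 3.10.9. Both procedures were tested on simulated data, where the retina test missed most of the changes put in.

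The members and lists were chosen with earlier results of these data known. The genes named are the members, those of the target, ligand metabolism, bHLH-PAS and vessel lists past 2-fold, *Arnt*, *Nqo1*, *Cyp1a1*, *Hif1a* and *Epas1*, the 5 genes most like *Ahr*, and the genes of the co-detection count. *Slc7a5*, *Nfe2l2*, *Aldh3a1*, *Il4i1*, *Afmid*, *Kyat1*, *Kyat3*, *Vwf*, *Vcam1* and *Slc38a5* were added once their values were known. The alternatives tried covered scaling, weighting and filters of nuclei, markers, thinning depth, DESeq2, the low-count filter, the kit, batch 1 and the curated libraries.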

Additional observations from a re-analysis of the deposited data

How the results depend on the processing

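The *Ahr* ratio in brain ECs was 13.8 with TMM factors, 12.7 in nuclei with at least 1000 UMIs, 14.8 in nuclei with at least 2 endothelial markers and 18.3 without cycling nuclei. It went to 58.2 with nuclei weighted equally and to 58.6 without nuclei holding a fibroblast marker UMI, and was 6.64 against the floor, with a lower 95% limit of 4.37, where pericyte markers were under 10%. In these last 2 subsets the control held 3 and 0 *Ahr* UMIs. It was 7.11 in nuclei with a fibroblast marker UMI and 6.98 in cycling nuclei. These 3 subsets by fibroblast markers and cycling nuclei were added after seeing the data, and the cause was not tested. *Tiparp* stayed between 1.08 and 1.29 except for 1.48 where pericyte markers were under 10%, from 3 and 2 UMIs. *Cyp1b1* stayed between 0.331 and 0.465. *Arnt2* stayed between 0.536 and 0.813 except for 2.51 without nuclei holding a fibroblast marker UMI, from 1 and 3 UMIs. *Ahrr* gave no ratio under any of these, nor did *Cyp1b1* and *Arnt2* with pericyte markers under 10% or *Cyp1b1* without fibroblast markers.

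Genes past 2-fold numbered 2231, against 1015 with at least 100 UMIs, 3971 with at least 5 and 2183 with TMM factors. The share of CKO EC nuclei with *Ahr* was 2.38%, 9.18% and 10.6% at 500 and 2000 UMIs and without thinning, and that of control nuclei 0%, 0.320% and 0.768%, where the upper 95% limit of 0 of 2059 was 0.179%. Such shares follow depth by construction. Of the 5 genes most like *Ahr* by Pearson's r, 2 were among the first 5 by Spearman's rho.

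In the retina, 0 member and type pairs had an adjusted p under 0.05 in any of 7 alternatives, of which the libraries with *Xist* like the control and the fit without CKO replicate 4 were added after seeing the data; the smallest was 0.271, for *Tiparp* in MG with DESeq2, where the alternatives ranged from 0.271 to 1.00. *Ahr* and *Tiparp* in immune cells did not pass the low-count filter within batch 1, nor did *Cyp1b1* in RGC there, without CKO replicate 4, without replicates 4 and 5 or in the libraries with *Xist* like the control. *Ahr* kept a positive log2 fold change in all 61 alternative values. Of 198 values, 15 changed sign, all of small differences, and the cause was not tested. *Tiparp* in cones went from -0.07 to 0.08 without covariate, 0.11 in batch 1, 0.06 without CKO replicates 4 and 5 and 0.12 in libraries with *Xist* like the control. *Ahrr* in GABA_AC went from -0.15 to 0.27 in batch 1 and 0.09 in the *Xist* subset, and in Gly_AC from -0.03 to 0.23, 0.13, 0.19 and 0.36 under the same 4 settings as *Tiparp*. *Arnt2* in GABA_AC went from 0.02 to -0.0039 with no filter, -0.05 without replicates 4 and 5 and -0.03 in the *Xist* subset, in MG from -0.06 to 0.04 without covariate, and in RGC from -0.08 to 0.0040 in the *Xist* subset. Low UMI counts limit *Ahrr*, *Arnt2* and *Cyp1b1* in brain ECs. They also limit *Ahrr* in retinal types other than rods, which held 81 control UMIs.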

Other observations

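Retinal astrocytes were not fitted, because the control library held 12 of them. In the 4 CKO libraries with at least 20, *Arnt2* lay between 108 and 261 CPM and *Tiparp* between 46.6 and 196, and *Ahr* between 20.0 and 65.2. Control astrocytes held 7 *Arnt2* UMIs, 4 *Tiparp* UMIs and 0 *Ahr* UMIs among 31274. Brain astrocytes had 1 *Ahr* UMI over both libraries, while *Tiparp* was at 162 and 247 CPM there.

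Among other bHLH-PAS genes in brain ECs, the clock genes *Arntl* and *Npas2* lay on opposite sides of 1. *Arntl* was at 18.6 CPM in the control against 35.5 in the CKO library, a ratio of 1.91 (1.51 to 2.41), short of 2-fold. *Arntl2* had 13 and 2 UMIs, too few to be counted, and *Clock* a ratio of 1.09 (1.01 to 1.19). *Arntl*, *Arntl2* and *Clock* were picked out after their values had been seen.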
